A study of Mus musculus with 9 samples.

Results

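The red cell lineage was followed through 9 genes on arrays of the E10.5 mouse otic vesicle (OV). They were the globin genes *Hba-x*, *Hba-a1*, *Hbb-bh1*, *Hbb-y* and *Hbb-b1*, and the erythroid genes *Alas2*, *Eraf*, *Klf1* and *Slc4a1*. All probes listed under these symbols were taken, which gave 10 probes of the 25697 on the array, and all 9 genes were found among its 18120 symbols. *Hbb-y* had 2 probes, kept apart here as probe 1 (ILMN_2723322) and probe 2 (ILMN_3141257), and each other gene had 1. The study set out to find transcripts that distinguish the OV from other embryonic tissue. Tissue of CD-1 embryos was pooled and measured on 9 arrays of 1 colour, with 3 arrays per group. The OV group held microdissected otic vesicles, the periotic tissue group held the mesenchyme and hindbrain around them, and the embryo-minus-otic group held whole embryos from which the otic region had been removed. The embryos came from separate litters, but no label ties an array's number to a litter. Some probes varied with the number in every tissue, as given below, and the numbers were not taken as pairs. The p-values measure only the spread between these arrays, which may be technical. In pooled tissue of this kind, fewer red cells and less RNA per red cell cannot be told apart.

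In the midgestation mouse embryo, circulating blood consists mainly of primitive erythroid cells, which arise in the yolk sac and mature in the bloodstream. These cells make hemoglobin from embryonic alpha-like and beta-like globin chains, and the adult beta chains take over with the later, definitive red cells that come from the fetal liver. The alpha-like genes and the beta-like genes each lie in a cluster of their own. The deposited annotation places *Hba-x* and *Hba-a1* on chromosome 11 and the beta-like genes on chromosome 7, and it also places *Slc4a1* on chromosome 11.

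Upstream sequences of globin members are shown here because these genes differed together between the tissues. RefSeq sequences (build GRCm38.p6) were at hand for 5 of the 9 genes, namely *Hba-x*, *Hba-a1*, *Hbb-y*, *Alas2* and *Klf1*, and not for *Hbb-bh1*, *Hbb-b1*, *Eraf* and *Slc4a1*. The 250 bases before the annotated start site are given for 3 globin genes, 5′ to 3′ on the strand of the gene, for *Hba-x* (chr11:32276350-32276599, plus strand), *Hba-a1* (chr11:32283422-32283671, plus strand) and *Hbb-y* (chr7:103853208-103853457, minus strand). Capitals mark matches, on either strand, to GATA motifs (the letters AGATAA and likewise AGATAG, or else TGATAA and likewise TGATAG), to the CACCC box, to the CCAAT box and to TATA-like motifs (TATAA and also ATAAAA), with overlapping matches allowed.
*Hba-x*: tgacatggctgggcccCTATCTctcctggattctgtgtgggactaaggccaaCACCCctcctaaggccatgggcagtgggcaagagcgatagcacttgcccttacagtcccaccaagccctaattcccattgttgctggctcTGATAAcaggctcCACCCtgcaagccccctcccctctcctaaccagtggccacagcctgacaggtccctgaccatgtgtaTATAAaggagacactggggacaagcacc
*Hba-a1*: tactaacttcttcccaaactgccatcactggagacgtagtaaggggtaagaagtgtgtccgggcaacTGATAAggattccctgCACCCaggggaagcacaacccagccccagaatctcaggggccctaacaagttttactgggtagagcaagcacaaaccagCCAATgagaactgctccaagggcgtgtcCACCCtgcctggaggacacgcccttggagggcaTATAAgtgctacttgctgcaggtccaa
*Hbb-y*: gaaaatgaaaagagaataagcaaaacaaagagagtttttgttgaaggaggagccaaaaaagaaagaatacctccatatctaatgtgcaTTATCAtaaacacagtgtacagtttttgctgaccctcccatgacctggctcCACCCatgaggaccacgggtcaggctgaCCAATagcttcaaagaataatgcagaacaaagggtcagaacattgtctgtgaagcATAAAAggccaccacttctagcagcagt
GATA motifs are those of the GATA factor family, and CACCC boxes are those bound by KLF proteins, to which the member *Klf1* belongs. In *Hba-x* the GATA matches began 234 and 108 bases before the start site and the CACCC matches 198 and 95 bases before it. In *Hba-a1* a GATA match began at 183 bases, CACCC matches at 167 and 60, and a CCAAT match at 88. In *Hbb-y* the GATA match began at 162 bases, the CACCC match at 111 and the CCAAT match at 83. Each of the 3 had a TATA-like match beginning 27 or 28 bases before the start site. *Alas2* and *Klf1*, not printed, also held a GATA match (86 and 80 bases before the start) and at least 1 CACCC match. Of all 32851 upstream windows of this length in the same table, 26.5% held a GATA match, 52% a CACCC match, 33.8% a CCAAT match and 31.1% a TATA-like match. A GATA and a CACCC match together were present in 11.8% of them, and both with a CCAAT match in 3.92%. A match describes the letters only.

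Between 11283 and 12160 probes per array lay above background, taken as a detection p under 0.01. The dissection was checked on *Oc90*, *Fbxo2* and other otic vesicle markers, of which 14 of 20 probes were higher in OV than in either other group and none lower. Of all probes, 5.89% were called higher in OV than in embryo-minus-otic tissue and 5.07% higher than in periotic tissue. The 6 that were not higher, single probes of *Pax2*, *Pax8* and *Dlx5* and all probes of *Hmx2* and *Hmx3*, were not above background on any OV array. No array was a copy of another.

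**Figure D1:**
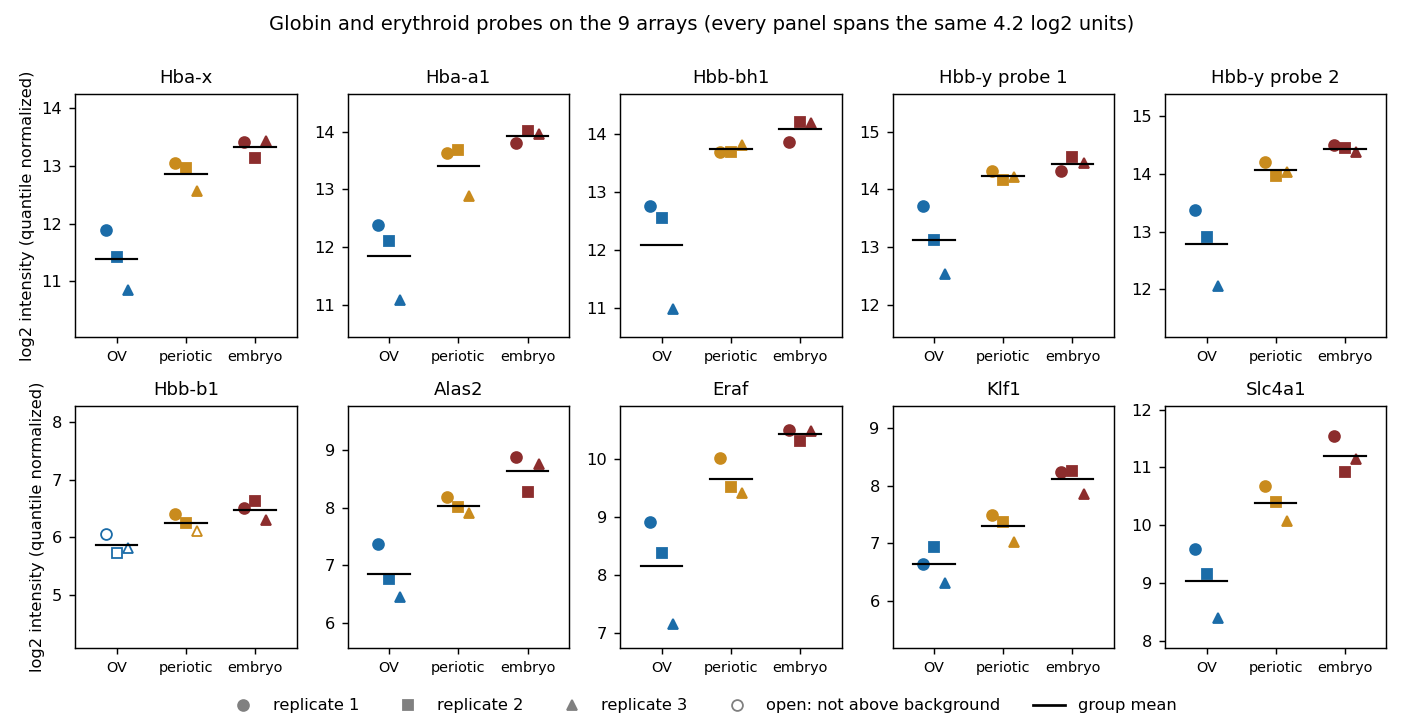
Each panel shows 1 probe, with log2 intensity after quantile normalization on the y axis and the 3 tissue groups on the x axis. Points are single arrays, shaped by replicate number and open where not above background, and lines are group means. OV 3 was the lowest of all 9 arrays for every probe except *Hbb-b1*, where OV 2 was, and every OV point lay below every point of the other groups.

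All 10 probes had less signal in OV, both against embryo-minus-otic tissue and against periotic tissue. Against embryo-minus-otic tissue the difference ran from -2.30 for *Eraf* to -0.61 for *Hbb-b1* on the log2 scale, with a median of -1.86 over the 10 probes and 0.004 over all probes. In that comparison 10 of 10 probes were called lower in OV (limma, Benjamini-Hochberg *q* under 0.05), where 5.51% of all probes were. The OV arrays and the embryo-minus-otic arrays did not overlap for any of the 10, against 11.8% of all probes that were lower in OV without overlap. Against periotic tissue 10 of 10 were again called lower, where 5.15% of all probes were, and none overlapped, against 12.8% of all probes. The median there was -1.32, with -0.000 over all probes. The 2 comparisons share the OV arrays.

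*Hba-x* encodes the zeta chain, the embryonic alpha-like globin. Values here and below follow replicate numbers 1 to 3 of each group, which have no order. Its normalized log2 intensity was 11.89, 11.42 and 10.85 for OV, against 13.05, 12.96 and 12.57 for periotic tissue and 13.41, 13.13 and 13.42 for embryo-minus-otic tissue. Every OV array lay below the others, and the remaining groups also stood apart, with periotic tissue the lower. It was 3.83-fold lower in OV than in embryo-minus-otic tissue (log2 difference -1.94, SE 0.198, limma *q* = 4.46e-06) and 2.77-fold lower than in periotic tissue (-1.47, *q* = 7.55e-05).

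*Hba-a1* encodes an adult alpha chain, which primitive red cells also make beside the zeta chain. The near-identical copy *Hba-a2* has no probe on this array, and signal from it could not be separated. Log2 intensity was 12.39, 12.10 and 11.08 across OV, 13.63, 13.68 and 12.88 across periotic tissue and 13.81, 14.01 and 13.96 across embryo-minus-otic tissue. OV 3 and the third periotic array were each well below the other 2 arrays of their group. The fold Δ was 4.21 lower in OV against embryo-minus-otic tissue (log2 difference -2.07, SE 0.261, limma *q* = 4.00e-05) and 2.91 lower against periotic tissue (-1.54, *q* = 6.98e-04).

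*Hbb-bh1* and *Hbb-y* are the embryonic beta-like globins of primitive red cells. *Hbb-bh1* measured 12.75, 12.55 and 10.97 on the OV arrays, 13.70, 13.70 and 13.81 on the periotic arrays and 13.87, 14.21 and 14.19 on the embryo-minus-otic arrays. The distance between OV 3 and the other OV arrays was larger here than for any other member, while the periotic arrays lay within 0.11 of each other. *Hbb-bh1* was 4.0-fold lower in OV than in embryo-minus-otic tissue (log2 difference -2.0, SE 0.309, limma *q* = 3.13e-04) and 3.13-fold lower than in periotic tissue (-1.65, *q* = 0.00177).

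*Hbb-y* encodes the epsilon-like chain. Probe 1 measured 13.72, 13.13 and 12.53 for OV, against 14.32, 14.16 and 14.21 for periotic tissue and 14.32, 14.56 and 14.45 for embryo-minus-otic tissue. Probe 2 measured 13.37, 12.91 and 12.06, then 14.21, 13.96 and 14.03, and then 14.49, 14.45 and 14.37 in the same order of groups. For both probes the OV arrays were separate from the rest, and for probe 1 a periotic and an embryo-minus-otic array met. OV was lower than embryo-minus-otic tissue by -1.32 on probe 1 (2.50-fold, SE 0.200, limma *q* = 2.64e-04) and by -1.66 on probe 2 (3.15-fold, SE 0.218, *q* = 6.33e-05). Against periotic tissue the differences were -1.10 (limma *q* = 0.00133) and -1.28 (limma *q* = 7.30e-04). The brighter *Hbb-y* probe reached 16.6% to 37.5% of the brightest signal on the OV arrays, 56.6% to 63.7% on the periotic arrays and 60.3% to 73.8% on the embryo-minus-otic arrays. Whether signals this near the top of the scale were compressed was not tested.

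*Hbb-b1* encodes an adult beta chain. It was at or near background, with log2 intensity of 6.05, 5.73 and 5.82 across OV, 6.41, 6.25 and 6.11 across periotic tissue and 6.50, 6.63 and 6.30 across embryo-minus-otic tissue. It was above background on 0 of 3 OV arrays, 2 of 3 periotic arrays and 3 of 3 embryo-minus-otic arrays. The log2 difference of OV was -0.61 against embryo-minus-otic tissue (limma *q* = 0.00161) and -0.39 against periotic tissue (limma *q* = 0.0373). With a bound for the OV arrays, the group mean was at least 1.21-fold higher in embryo-minus-otic tissue and at least 1.04-fold higher in periotic tissue. The bounds themselves were not tested. For the bound, each OV array counted with whichever was higher, *Hbb-b1* itself or the dimmest probe above background on that array. The call against periotic tissue was lost in 7 of the 18 alternative fits, among them neqc (*q* = 0.0537) and leaving out OV 3 (*q* = 0.121). The other adult beta gene on the array, *Hbb-b2*, was not above background on any of the 9 arrays.

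**Figure D2:**
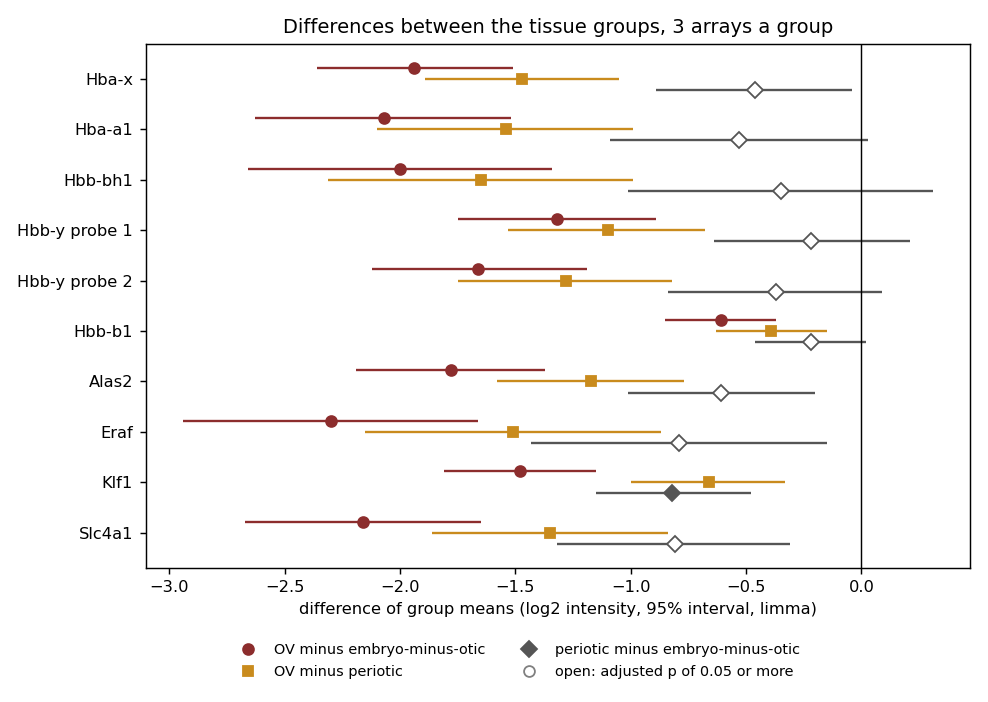
The x axis gives the difference of group means in log2 intensity and the y axis the 10 probes. Points are limma estimates with 95% intervals, filled where *q* is under 0.05, in 3 colours for the 3 comparisons. Both OV comparisons lie left of 0 for all 10 probes, while between periotic and embryo-minus-otic tissue only *Klf1* is filled, at -0.82.

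The erythroid genes that are not globins differed in the same direction. *Alas2*, the enzyme of the first step of heme synthesis in red cells, measured 7.37, 6.76 and 6.45 on the OV arrays, 8.19, 8.01 and 7.90 on the periotic arrays and 8.88, 8.27 and 8.76 on the embryo-minus-otic arrays. The 3 groups did not overlap. It was 3.43-fold lower in OV than in embryo-minus-otic tissue (log2 difference -1.78, SE 0.191, limma *q* = 7.76e-06) and 2.26-fold lower than in periotic tissue (-1.17, *q* = 5.07e-04). *Alas2* was dim on OV 3 (detection p 0.00125), and with neqc these differences were -2.27 and -1.58.

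*Eraf*, an older symbol of *Ahsp*, encodes a chaperone of free alpha globin. Its log2 intensity was 8.91, 8.38 and 7.14 for OV, against 10.01, 9.52 and 9.42 for periotic tissue and 10.51, 10.32 and 10.48 for embryo-minus-otic tissue. It had the largest difference of the 10 probes, 4.91-fold lower in OV than in embryo-minus-otic tissue (log2 difference -2.30, SE 0.301, limma *q* = 6.04e-05). This was number 42 from the most negative of all 25697 differences. Against periotic tissue it was 2.85-fold lower (-1.51, *q* = 0.00292).

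*Slc4a1* encodes band 3, the anion exchanger of the red cell membrane. It measured 9.59, 9.15 and 8.39 across OV, 10.68, 10.41 and 10.07 across periotic tissue and 11.55, 10.92 and 11.14 across embryo-minus-otic tissue. The groups stood apart, and OV 1 was the highest and OV 3 the lowest of the OV arrays. OV was 4.48-fold lower than embryo-minus-otic tissue (log2 difference -2.16, SE 0.238, limma *q* = 1.01e-05) and 2.54-fold lower than periotic tissue (-1.35, *q* = 0.00106).

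*Klf1* encodes a transcription factor of red cells that activates globin and other erythroid genes. It measured 6.65, 6.94 and 6.32 on the OV arrays, 7.50, 7.37 and 7.03 on the periotic arrays and 8.24, 8.25 and 7.86 on the embryo-minus-otic arrays. Among the member probes above background on all arrays, *Klf1* was the only one for which OV 2, not OV 1, was the highest OV array. It was dim in OV, with a detection p of 0.00501 on OV 3. *Klf1* was 2.79-fold lower in OV than in embryo-minus-otic tissue (log2 difference -1.48, SE 0.156, limma *q* = 6.14e-06) and 1.59-fold lower than in periotic tissue (-0.66, *q* = 0.00999). The call against periotic tissue was lost with median normalization (*q* = 0.0545), without OV 3 (*q* = 0.0611) and without the first periotic array (*q* = 0.0691).

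Between periotic and embryo-minus-otic tissue all 10 probes were lower in periotic tissue, with a median of -0.50 against 0.007 over all probes, but few passed the test. *Klf1* was the only one called (log2 difference -0.82, 95% interval -1.15 to -0.48, limma *q* = 0.00387), which is 1 of 10 where 2.95% of all probes were called lower. The arrays did not overlap for 8 of the 10, the exceptions being *Hbb-b1* and probe 1 of *Hbb-y*, against 9.19% of all probes that were lower in periotic tissue without overlap. The differences that missed the threshold were -0.81 for *Slc4a1* (limma *q* = 0.0617), -0.79 for *Eraf* (*q* = 0.181), -0.61 for *Alas2* (*q* = 0.0879), -0.53 for *Hba-a1* (*q* = 0.344) and -0.46 for *Hba-x* (*q* = 0.248). Those of *Hbb-bh1* (-0.35), of *Hbb-y* (-0.22 and -0.37) and of *Hbb-b1* (-0.22) were smaller. Their 95% intervals included 0, as did that of *Hba-a1* (-1.09 to 0.03). A fit of these 2 groups alone, in which the spread of the OV arrays plays no part, called 5 of 10 lower, namely *Klf1*, *Slc4a1*, *Eraf*, *Alas2* and probe 2 of *Hbb-y*, where it called 2.6% of all probes lower. In the fit of all 3 groups, 4 of 10 were called lower without OV 3, where 755 of all 25697 probes were. With neqc and with median normalization that fit called 0 of 10, where 650 and 315 of all probes were called lower. Liver markers, which mark a site of blood formation, also differed between these groups. The log2 of the summed intensity of their 16 probes was between 9.93 and 10.02 in periotic tissue and between 10.66 and 10.78 in embryo-minus-otic tissue. Of these probes, 12 were not above background on any periotic array. The part of liver cells in the differences of the red cell genes was not tested. *Afp*, the fetal liver serum protein, was above background on 3 of 3 embryo-minus-otic arrays and on none of the others.

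The embryonic and adult globins were then set against each other within each array. Intensities of different probes cannot be read as relative amounts of RNA, so only the change of such a difference between groups is of use, and it shows unequal change alone. *Hbb-y* probe 1 minus *Hba-a1* was 1.34, 1.03 and 1.45 for OV, against 0.69, 0.48 and 1.33 for periotic tissue and 0.51, 0.55 and 0.49 for embryo-minus-otic tissue. The OV arrays were all higher than the embryo-minus-otic arrays, by 0.75 in the mean, and the third periotic array fell among the OV arrays. Probe 2 gave 0.99, 0.81 and 0.99 across OV, 0.58, 0.28 and 1.15 across periotic tissue and 0.67, 0.44 and 0.42 across embryo-minus-otic tissue, again with no overlap between OV and embryo-minus-otic arrays and a mean difference of 0.42. The *Hbb-y* probes were the brightest of the members, and whether compression near the top of the scale took part in this rise was not tested. The other embryonic genes did not show the rise. *Hba-x* minus *Hba-a1* averaged -0.47 in OV, -0.54 in periotic tissue and -0.60 in embryo-minus-otic tissue, and *Hbb-bh1* minus *Hba-a1* averaged 0.24, 0.34 and 0.16, with all groups overlapping in both. The mean of all embryonic probes minus *Hba-a1* averaged 0.49 with an SD of 0.0780 over the 3 OV arrays, 0.33 with an SD of 0.399 over the periotic arrays and 0.15 with an SD of 0.0658 over the embryo-minus-otic arrays, and OV and embryo-minus-otic arrays did not overlap. *Hbb-y* entered this mean with both of its probes. On the third periotic array the mean minus *Hba-a1* was 0.78, with *Hba-a1* low and *Hbb-bh1* and *Hbb-y* not low. With *Hbb-b1* included among the adult probes, the sign turned, from 3.49 in OV to 3.87 in embryo-minus-otic tissue. *Hbb-b1* was not above background on any OV array, and with neqc the difference between OV and embryo-minus-otic tissue was -0.13 in place of -0.39. No test was made on these differences.

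**Figure D3:**
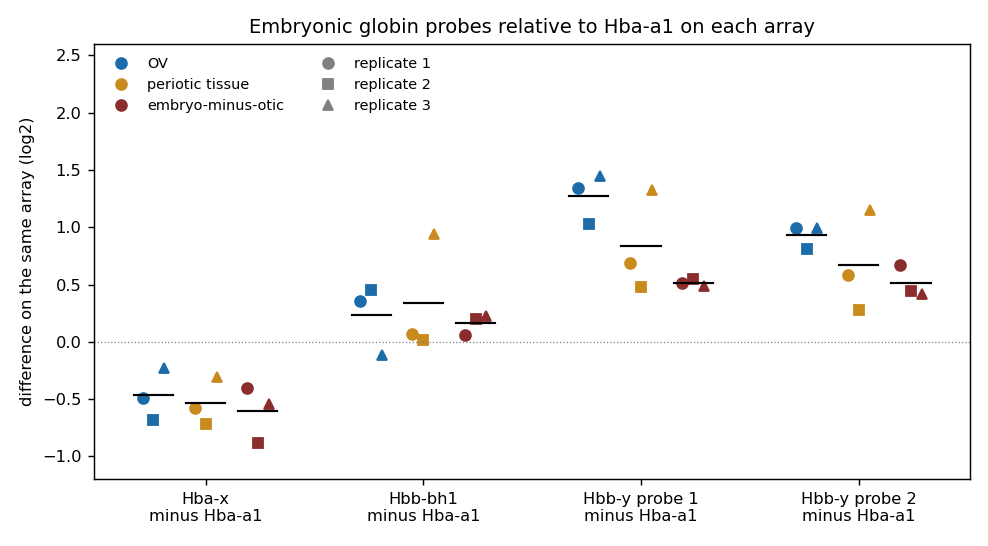
The y axis gives the log2 intensity of an embryonic globin probe minus that of *Hba-a1* on the same array, and the x axis the 4 embryonic probes, with points for single arrays coloured by group and lines for group means. The OV points lie above the embryo-minus-otic points for both *Hbb-y* probes, by 0.75 and 0.42 in the mean, and overlap them for *Hba-x* and *Hbb-bh1*.

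The OV arrays differed among themselves more in these genes than in most others. Over the 9 member probes above background on all arrays, every one but *Hbb-b1*, the SD between OV arrays ranged from 0.307 for *Klf1* to 0.977 for *Hbb-bh1*, with a median of 0.607. All 9 exceeded 0.279, the 95th percentile of this SD over the 9767 probes above background on all arrays. In periotic tissue the median SD was 0.243 and 3 of the 9 exceeded the 95th percentile there (0.302), and in embryo-minus-otic tissue the median was 0.167 and 0 of 9 did. OV 3 was the lowest OV array for 9 of 9 and OV 1 the highest for 8 of 9. The numbers fell alike in periotic tissue, with the first array highest for 7 of 9 and the third lowest for 6 of 9. Of the embryo-minus-otic arrays the first was highest for 4 of 9 and the second lowest for 4 of 9. The highest OV array exceeded the lowest 1.53-fold in *Klf1*, 1.88-fold in *Alas2*, 2.06-fold in *Hba-x*, 3.42-fold in *Eraf* and 3.44-fold in *Hbb-bh1*. A gap from OV 1 to OV 3 of 1.04 or more, the smallest among the bright globin probes, was found in 14 of the 9767 probes (0.143%). The threshold was set by the members themselves, so all 5 bright globin probes were bound to be among the 14, and *Eraf* and *Slc4a1* were too. The others were single probes of *Tmem14c*, *Trim59*, *Slc25a17*, *Csrp1*, *Sc4mol*, *1810027O10Rik* and *Actb*. The log2 of the summed intensity of endothelial markers followed the same order, at 12.11 on OV 1, 11.96 on OV 2 and 11.81 on OV 3. The endothelial probes above background did not, numbering 14, 15 and 16. Of the sums of the other gene lists only that of heme and iron followed it, at 15.29, 15.25 and 15.16. With OV 3 left out, 10 of 10 member probes were still called lower in OV than in embryo-minus-otic tissue, and 8 of 10 lower than in periotic tissue, those lost being *Klf1* and *Hbb-b1*.

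**Figure D4:**
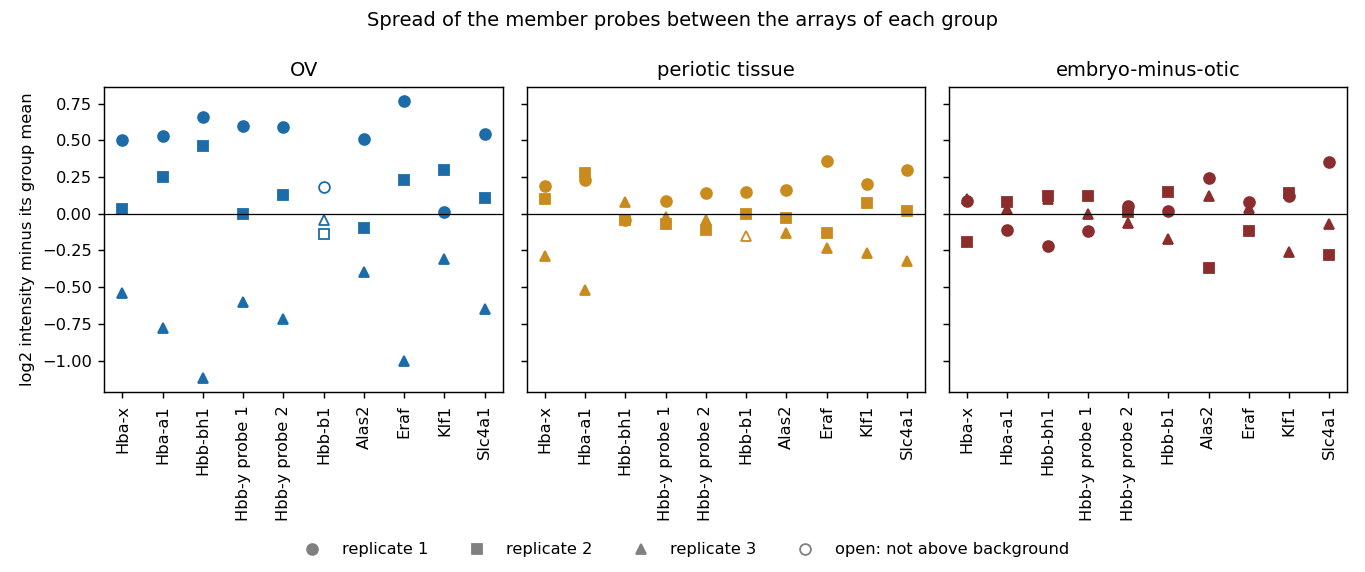
The y axis gives log2 intensity minus the mean of the group, and the x axis the 10 probes, with a panel for each tissue group and shapes for replicate numbers. The OV points spread from 0.77 to -1.12, with OV 3 lowest for every probe except *Hbb-b1*, while the embryo-minus-otic points stay between 0.35 and -0.37.

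The members varied together. Each probe was centred on its own mean over the arrays. The mean of the 9 member probes above background on all arrays was -0.53, -0.90 and -1.73 on the OV arrays, 0.43, 0.26 and 0.06 on the periotic arrays and 0.85, 0.75 and 0.80 on the embryo-minus-otic arrays. The correlation of single members with the mean of the other members ran from r = 0.90 for *Klf1* to r = 0.993 for *Eraf* over the 9 arrays, which fall into 3 tissue groups and so mainly carry the order of the groups. Among 9758 other probes above background on all arrays, the 10 most like this profile included *Blvrb* (r = 0.985), *Dnajc19* (0.973), *Mrps24* (0.971), *Gmpr* (0.967), *Cox4i1* (0.966), *D7Rp2e* (0.965), *Aard* (0.962) and *Srr* (0.960). *Blvrb*, a biliverdin reductase abundant in red cells, measured 7.87, 7.82 and 7.25 on the OV arrays, 8.99, 8.79 and 8.59 on the periotic arrays and 9.34, 9.43 and 9.26 on the embryo-minus-otic arrays. Its 3 groups did not overlap. *Cox4i1*, a subunit of the respiratory chain, matched the shape with a far smaller size, its OV mean being 12.07 and its embryo-minus-otic mean 12.27 (difference -0.20, limma *q* = 0.128).

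Other genes of the pathway were taken as lists. Of the probes for red cell membrane and surface genes, 11 of 36 were called lower in OV than in embryo-minus-otic tissue and 1 higher, where 5.51% and 5.89% of all probes were, with a list median of -0.15. Among those lower were *Slc2a1*, a glucose transporter also present in many other cells (-1.03, limma *q* = 1.26e-05), *Gypc*, glycophorin C (-0.96, *q* = 5.58e-05), and *Kel*, the Kell blood group protein (-0.91, *q* = 7.03e-04). *Cd24a*, a surface protein that epithelial cells carry as well, was the probe called higher in OV (0.67, *q* = 6.34e-04). Against periotic tissue 4 of 36 were lower and 1 was higher, where 5.15% and 5.07% of all probes were. Between periotic and embryo-minus-otic tissue 6 were lower and 0 higher, where 2.95% and 2.86% of all probes were, led by *Tmod1*, which caps actin filaments (-1.17, *q* = 4.45e-05).

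Heme and iron genes were called lower in OV than in embryo-minus-otic tissue for 7 of 35 probes and higher for 1, with a median of -0.19. Of all probes, 5.51% were lower and 5.89% higher. *Blvrb* fell by 1.70 (limma *q* = 6.19e-07), the iron exporter *Slc40a1* by 1.25 (*q* = 4.83e-08), the mitochondrial iron carrier *Slc25a37*, listed as *Mscp*, by 1.00 (*q* = 1.84e-05) and *Blvra* by 0.61 (*q* = 0.00197). The probe called higher was *Slc11a2*, an iron importer (0.36, *q* = 0.0147). Against periotic tissue 4 of 35 were lower and 0 higher, where 5.15% and 5.07% of all probes were. Between the non-otic groups 4 were lower in periotic tissue and 0 higher, where 2.95% and 2.86% of all probes were. Of the enzymes of heme synthesis after *Alas2*, only *Uros* was called against embryo-minus-otic tissue, lower on 1 probe (-0.33, *q* = 0.0304).

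Among the erythroid transcription factors, 6 of 20 probes were lower in OV than in embryo-minus-otic tissue and 2 higher, with a median of -0.11. Of all probes, 5.51% were lower and 5.89% higher. *Lmo2*, a bridging protein of the erythroid complex that endothelium also expresses, fell by 1.59 (limma *q* = 1.40e-07), and its partner *Tal1* by 0.78 (*q* = 2.09e-04), *Tal1* being above background on 1 of 3 OV arrays. *Gata2* (0.79, *q* = 0.00238) and *Zfpm1*, the GATA cofactor FOG1 (0.62, *q* = 0.00743), were higher in OV. *Zfpm1* was also higher in OV than in periotic tissue (1.45, limma *q* = 2.34e-06). In that comparison 4 of 20 probes were lower and 1 was higher, where 5.15% and 5.07% of all probes were. *Gata1*, the main GATA factor of red cells, was not above background on any array with either of its 2 probes. *Nfe2*, a factor of red cells and platelets, differed by -0.19 (*q* = 0.423). Between the non-otic groups 2 of 20 were lower and 1 higher in periotic tissue, where 2.95% and 2.86% of all probes were.

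Of the regulators of globin switching, 2 of 17 probes were lower in OV than in embryo-minus-otic tissue and 3 higher, where 5.51% and 5.89% of all probes were. The list median was 0.06, and 1 of the 2 lower probes was the member *Klf1*. The other was *Bcl11a*, a repressor of embryonic globin genes that is also expressed in neurons. It measured 5.79, 6.36 and 5.84 across OV, 6.23, 6.88 and 6.21 across periotic tissue and 7.11, 8.14 and 7.26 across embryo-minus-otic tissue (OV minus embryo-minus-otic -1.50, limma *q* = 3.65e-04). Its second array was the highest in every group. *Lin28a*, an RNA-binding protein of early embryonic cells, was higher in OV on both probes (0.67 and 1.07, *q* = 0.0129 and 8.35e-05). Against periotic tissue 1 of 17 (5.88%) was lower, near the 5.15% of all probes, and 3 were higher, where 5.07% of all probes were. Between the non-otic groups 2 were lower in periotic tissue and 0 higher, where 2.95% and 2.86% of all probes were. *Myb* and *Sox6* were not above background on any array.

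The remaining erythroid genes had 6 of 28 probes lower in OV than in embryo-minus-otic tissue and 2 higher, with a median of -0.08. Of all probes, 5.51% were lower and 5.89% higher. *Trim10*, a gene of terminal erythroid cells, was lower on 1 of 3 probes (-1.07, limma *q* = 6.25e-06). *Epor*, the erythropoietin receptor, was lower by -0.35 (*q* = 0.0157), with 1 of 3 OV arrays above background. Both probes called higher were of *Prdx2*, a peroxiredoxin that is abundant in red cells and present in many others (0.49 and 0.50, *q* = 0.00244 and 0.0232). Against periotic tissue 3 of 28 were lower and 1 was higher, where 5.15% and 5.07% of all probes were. Between the non-otic groups 2 were lower in periotic tissue and 1 was higher, where 2.95% and 2.86% of all probes were.

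**Figure D5:**
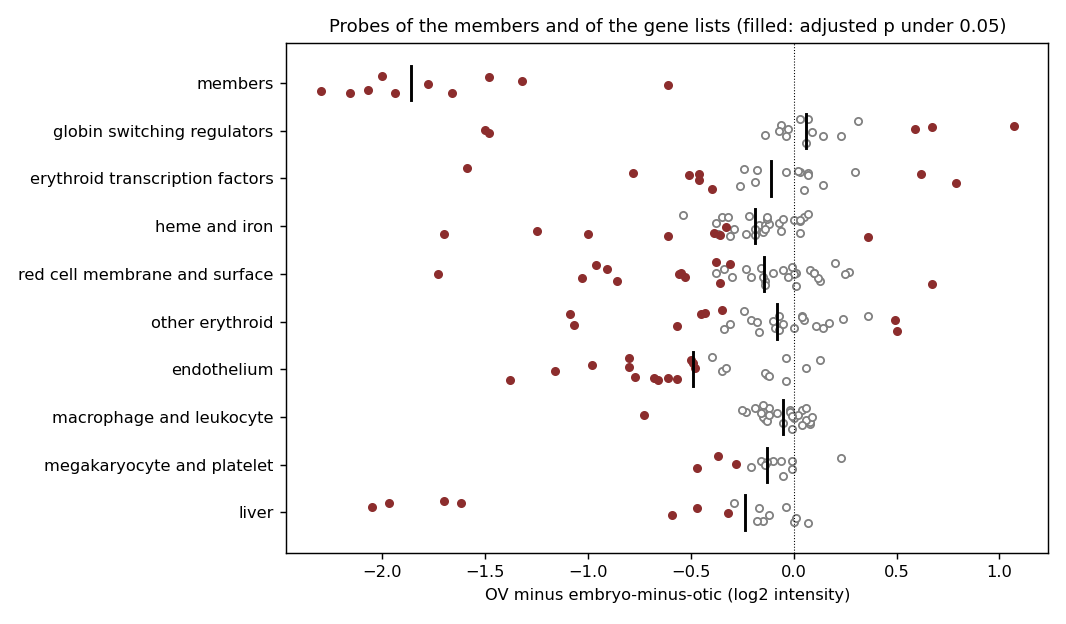
The x axis gives the log2 difference OV minus embryo-minus-otic for every probe, and the y axis the members and 9 gene lists. Filled points passed *q* under 0.05 and bars are medians. The member median is -1.86, while the 5 pathway lists have medians from -0.19 to 0.06 with a few probes far to the left, and the endothelial list has a median of -0.49.

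Endothelial markers were lower in OV than in embryo-minus-otic tissue for 13 of 23 probes and lower than in periotic tissue for 11, with none higher, led by *Plvap* (-1.38, limma *q* = 3.40e-08). Of all probes, 5.51% and 5.15% were lower in these comparisons. The log2 of the summed intensity of the endothelial probes was 11.81 to 12.11 in OV, 12.44 to 12.54 in periotic tissue and 12.61 to 12.74 in embryo-minus-otic tissue. Macrophage and leukocyte markers were lower in OV for 1 of 27 probes (3.70%) against embryo-minus-otic tissue, where 5.51% of all probes were, and for 5 of 27 (18.5%) against periotic tissue, where 5.15% were. Between periotic and embryo-minus-otic tissue 0 of 27 were called lower in periotic tissue and 2 (7.41%) higher, where 2.95% and 2.86% of all probes were. The list median there was 0.06. *Ptprc*, the leukocyte antigen CD45, was not above background on any array. The log2 of the summed intensity of the macrophage and leukocyte probes was 10.93 to 10.98 in OV, 11.24 to 11.30 in periotic tissue and 11.07 to 11.15 in embryo-minus-otic tissue. Megakaryocyte and platelet markers were lower in OV for 3 of 13 probes against embryo-minus-otic tissue and for 1 (7.69%) against periotic tissue, where 5.51% and 5.15% of all probes were. The log2 of their summed intensity was 9.63 to 9.67 in OV, 9.73 to 9.78 in periotic tissue and 9.79 to 9.82 in embryo-minus-otic tissue, with 12 of 13 probes not above background on any OV array. Liver markers were lower in OV for 7 of 16 probes against embryo-minus-otic tissue, where 5.51% of all probes were. Against periotic tissue 1 (6.25%) was lower, near the 5.15% of all probes. The log2 of their summed intensity was 9.89 to 9.94 in OV. The part of these other cells in the differences of the red cell genes was not tested.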

How the data were processed

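The 9 RNA pools each went onto 1 Illumina MouseRef-8 v2.0 array. The authors deposited the average signal of GenomeStudio for each probe as an intensity without normalization between arrays, and a detection p-value against the array's negative controls. Signals were log2 transformed with a floor of 1, which changed 0 values, and quantile normalized. A model of the 3 groups was fitted to all 25697 probes with limma 3.58.1 in R 4.3.3, with p-values adjusted over all probes of a comparison by Benjamini-Hochberg (*q*). Probes were kept apart. The number of arrays, 3 per group, limits precision, and bead counts were not analysed here. The steps were tested on simulated data first. There each probe had the same spread in all groups, so a spread that differs between groups was not covered.

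The members and lists were chosen with earlier results of these data known. Named genes were the members, up to 4 called probes with the largest difference per list and comparison, some fixed erythroid genes, bright markers, and the 10 probes most like the members. Some of these are not reported here, and some counts are explained by genes chosen after their values were seen. Alternatives were neqc, median and no normalization, filters at a detection p of 0.01 or 0.05, a fit of 2 groups, a replicate block, an intensity trend, array weights and each array left out.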

Additional observations from a re-analysis of the deposited data

How the results depend on the processing

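All 10 probes stayed lower in OV than in embryo-minus-otic tissue and called in each of the 18 alternatives (180 of 180 refits), and against periotic tissue 170 of 180 refits were called, the exceptions being *Hbb-b1* and *Klf1*. Leaving out 1 array at a time gave 10 called against embryo-minus-otic and 8 to 10 against periotic tissue. Between periotic and embryo-minus-otic tissue the count was 1, where 757 of all probes were called lower. Lower calls over all probes follow each count in brackets. The count became 0 with neqc (650) and with median normalization (315), and 3 with no normalization (371). It was 2 with a filter at a detection p of 0.01 (719 of the probes kept). A fit of those groups gave 5 (668) and an intensity trend 2 (696). When 1 array was left out it was 1 to 4. It was 3 without OV 1 (699), 4 without OV 3 (755) and 3 without the second embryo-minus-otic array (694). With the replicate number as a block it was 4 (840), and the block left 10 of 10 called in both OV comparisons. The deviations of the 9 same-numbered pairs of arrays correlated at r = 0.000743 to 0.232 and those of the 18 others at -0.228 to 0.0745. The numbers were not taken as pairs because not every same-numbered pair exceeded 0.1. The embryonic minus *Hba-a1* difference between OV and embryo-minus-otic tissue ran from 0.31 to 0.40 with 1 array left out, and that with *Hbb-b1*, -0.39, from -0.50 to -0.21 (without OV 3), and it was -0.13 with neqc. With median normalization the calls over all probes went from 1417 lower and 1513 higher to 670 and 1472 for OV against embryo-minus-otic tissue, and from 757 and 736 to 315 and 812 between the non-otic groups. Under it the list counts lower in OV against embryo-minus-otic tissue were 3 for heme and iron, 7 for membrane, 3 for transcription factors and 3 for other erythroid genes, and against periotic tissue 2 for membrane and 2 for transcription factors. Between the non-otic groups they were 0, 1, 1 and 1 in that order of lists. With neqc, heme and iron gave 2 against periotic tissue and 2 between the non-otic groups, where transcription factors gave 1. The causes were not tested. Under the other scalings the median of all probes stayed between -0.090 and 0.048.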

Other observations

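Some probes of the lists varied with the array number within every tissue, apart from the group differences. *Tmem14c*, a transporter of heme synthesis, had 3 probes. On probe 3 the OV arrays measured 10.71, 10.81 and 8.49, the periotic arrays 10.92, 11.00 and 9.14 and the embryo-minus-otic arrays 11.09, 11.09 and 8.97, so that the array numbered 3 was lowest by over 1 log2 unit in each tissue. Probe 1 measured 10.01, 9.98 and 9.33 on the OV arrays, 10.35, 10.41 and 9.81 on the periotic arrays and 10.26, 10.33 and 9.85 on the embryo-minus-otic arrays, a smaller gap at the same number. *Alad*, an enzyme of heme synthesis, measured 11.85, 11.12 and 11.57 for OV, against 11.96, 11.09 and 11.65 for periotic tissue and 12.30, 11.31 and 11.87 for embryo-minus-otic tissue, with the array numbered 2 lowest each time. These probes were chosen after their values were seen, and neither gene was called between tissues on these probes.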
